A study of Homo sapiens with 12 samples.

Results

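BNIP3 and 9 other genes of mitophagy, the removal of mitochondria by autophagy, were followed in MDA-MB-231 cells. The manipulated cells had forced expression of the repressor Sharp1 or hairpins against both HIF alpha subunits. The members were BNIP3, BNIP3L, FUNDC1, BCL2L13, PINK1, OPTN, SQSTM1, MAP1LC3B, GABARAPL1 and ULK1, and they were taken by name: every probe set whose single gene symbol in the platform annotation was one of these was kept. That gave 24 probe sets for 10 genes, out of 54613 probe sets and 19775 genes tested. A further probe set assigned to GABARAPL1 and a related gene together was left out by that rule.

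MDA-MB-231 is a widely used human breast cancer line, derived from a metastasis. RNA of 12 samples was hybridised to Affymetrix expression arrays, 4 arrays (A to D) in each of 3 groups. Control cells (shGFP) carried a retroviral hairpin against GFP and were left untreated, shHIF cells carried retroviral hairpins against HIF1a and HIF2a, and Sharp1 cells overexpressed Sharp1, the protein of BHLHE41. All cells grew in serum-containing medium under normal culture conditions, so no group was exposed to low oxygen according to the labels. The labels name no vector for Sharp1 and no empty-vector control, and the same 4 shGFP arrays served as control for both manipulated groups. The labels call the replicates biological without naming separate cultures, and the p-values therefore cover only the spread among these arrays, which may be technical. The study's title places Sharp1 upstream of HIF degradation and metastasis, and the question here is how far the mitophagy genes moved under each manipulation and where Sharp1 and HIF depletion differed.

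In mitophagy, a damaged or surplus mitochondrion is tagged and then wrapped by a membrane that fuses with the lysosome. Receptors such as BNIP3, BNIP3L, FUNDC1 and BCL2L13 sit in the outer mitochondrial membrane and bind ATG8 proteins directly, whereas the kinase PINK1 marks depolarised mitochondria with phosphorylated ubiquitin that adapters such as OPTN and SQSTM1 (p62) read. MAP1LC3B and GABARAPL1 are ATG8 proteins anchored in the growing membrane, and ULK1 is the kinase that starts its formation. BNIP3 and BNIP3L are textbook targets of HIF in hypoxic cells, and Sharp1 is a basic helix-loop-helix repressor that binds E-box sequences.

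Of the 10 members, 8 had promoter windows in the RefSeq table (GRCh38.p14), all but BNIP3L and PINK1, and the 250 bases before each annotated start were searched on both strands for ACGTG and GCGTG, the core of the hypoxia response element, and for CACGTG, an E-box that contains ACGTG. The windows of BNIP3, the member with the largest fall, and of GABARAPL1, the member with the largest rise in shHIF cells, are shown with every match in capitals (CACGC is GCGTG read on the other strand).

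BNIP3, chr10:131981924-131982173, minus strand: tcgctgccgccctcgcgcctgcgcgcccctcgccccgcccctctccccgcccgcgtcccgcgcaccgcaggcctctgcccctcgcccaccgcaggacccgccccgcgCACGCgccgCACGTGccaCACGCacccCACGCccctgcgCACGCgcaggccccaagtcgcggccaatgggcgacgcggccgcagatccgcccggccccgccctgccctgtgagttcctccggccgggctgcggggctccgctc

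GABARAPL1, chr12:10212627-10212876, plus strand: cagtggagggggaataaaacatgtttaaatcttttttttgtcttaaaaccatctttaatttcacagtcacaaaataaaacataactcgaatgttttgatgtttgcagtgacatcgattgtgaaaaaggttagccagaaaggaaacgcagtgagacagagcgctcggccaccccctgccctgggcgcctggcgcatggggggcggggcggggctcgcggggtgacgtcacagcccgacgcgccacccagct

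The BNIP3 window held 6 matches of the 2 cores, 2 of ACGTG and 4 of GCGTG, all between positions -143 and -100 from the start. Both ACGTG matches lie within a single CACGTG at -134 to -129, which reads the same on either strand. Of 35116 windows of the same length, 43.2% held at least 1 core (18.5% ACGTG, 32.2% GCGTG), 6.34% held CACGTG, and 0.646% held as many core matches as BNIP3 or more. The 8 members had 13 windows between them, and 4 of the 13 held a core, 1 each of BNIP3, BCL2L13, MAP1LC3B and ULK1. The MAP1LC3B window held GCGTG matches that begin at -167, -142, -136 and -114, as many of this core as the BNIP3 window. CACGTG was found in the window of BNIP3 alone. The GABARAPL1 window held none of these letters. These matches are a description of the sequence and not a measurement of binding.

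BNIP3, which encodes a mitochondrial receptor with a BH3 domain, had the largest fall of the 10 genes in both groups and was lowest under Sharp1. On the brighter probe set, 201849_at, the log2 signal was 12.25, 12.28, 12.27 and 12.35 on shGFP arrays A to D. It was 11.74, 11.68, 11.83 and 11.57 on the shHIF arrays, and 10.44, 10.53, 10.60 and 10.57 on the Sharp1 arrays. The 3 groups did not overlap, with the control arrays highest, the shHIF arrays between and the Sharp1 arrays lowest.

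The group means on this probe set were 12.29 ± 0.04 in shGFP, 11.70 ± 0.11 in shHIF and 10.54 ± 0.07 in Sharp1 cells (SD, n = 4). BNIP3 was lower under Sharp1, with a log2 difference of -1.75 (SE 0.05, 95% confidence interval -1.85 to -1.65), which left 29.7% of the control signal (limma with Benjamini-Hochberg adjustment over all probe sets, adjusted p = 2.92e-18). In shHIF cells the difference was -0.58 (SE 0.05, interval -0.68 to -0.49), which left 66.8% (limma, adjusted p = 1.82e-09). Tested directly, Sharp1 lay below shHIF by -1.17 (SE 0.05, interval -1.27 to -1.07, limma adjusted p = 2.30e-15), so the fall under Sharp1 exceeded the fall in shHIF cells. HIF1A RNA stood at 12.05 in shHIF cells against 12.78 in shGFP, so its depletion was partial. RNA of EPAS1, which encodes HIF2a, stood at 6.68 in shHIF cells against 9.53 in shGFP on 200878_at. A fuller loss of HIF was not tested. RNA was pooled over cells, so a change in every cell and a change in the share of cells that express a gene cannot be told apart here.

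The second BNIP3 probe set, 201848_s_at, gave the same order. It read 10.96, 10.86, 10.97 and 11.08 in shGFP, 10.48, 10.58, 10.48 and 10.62 in shHIF, and 9.00, 9.14, 9.08 and 9.08 in Sharp1 cells. Again no array of one group reached the range of another. The differences from control were -1.89 under Sharp1 (27.0% left) and -0.43 in shHIF (74.4% left), and Sharp1 lay -1.46 below shHIF, with limma adjusted p of 2.92e-18, 7.86e-07 and 1.62e-16. Over the 12 arrays the 2 probe sets correlated at Pearson r = 0.985, over arrays that fall into 3 separated groups.

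**Figure D1:**
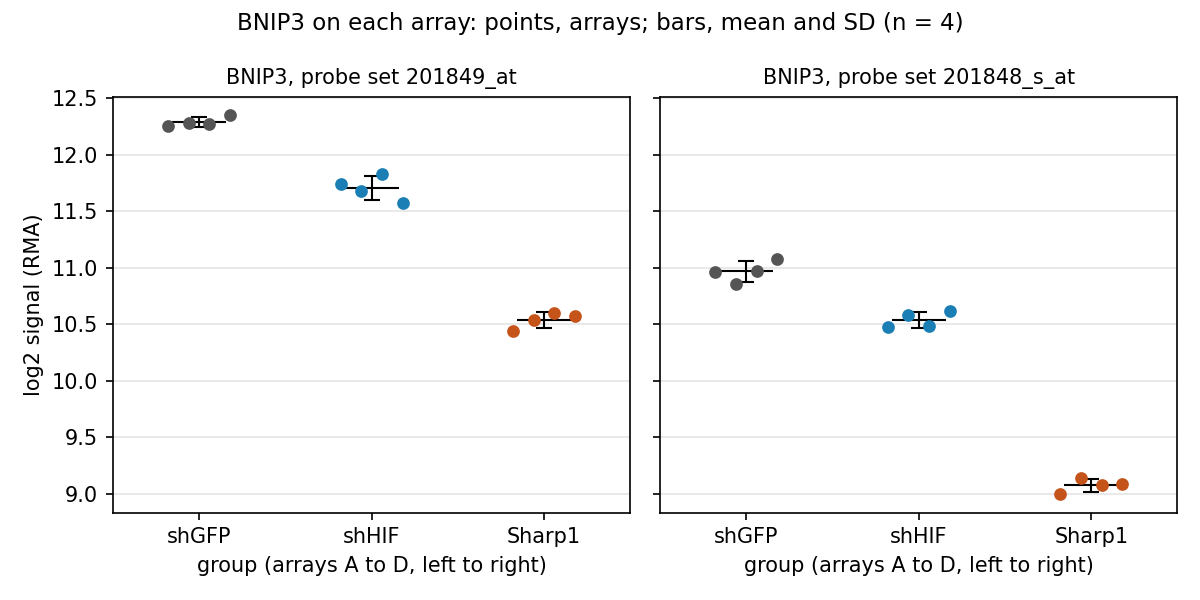
BNIP3 log2 signal on each array for both probe sets, with points for arrays A to D of each group from left to right and bars for the mean and SD of 4 arrays. On both probe sets the shGFP arrays lie highest, the shHIF arrays next and the Sharp1 arrays lowest, from 12.29 through 11.70 to 10.54 on the brighter one.

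With each gene read on its brightest probe set, 45 of 19775 genes had a larger fall than BNIP3 under Sharp1 and 409 had a larger fall in shHIF cells. The 6 genes whose pattern was most like that of BNIP3, by Pearson r over the 12 arrays among 617 genes whose group means spanned at least 1 log2 unit, were SLCO4A1 (0.995), OSBPL10 (0.994), TBCEL (0.994), AGTPBP1 (0.993), SH3TC2 (0.992) and LRRC20 (0.992). All 6 ran from control through shHIF to Sharp1 in falling order. SLCO4A1, an organic anion transporter gene, fell most steeply, with means of 10.8, 9.54 and 7.52. These coefficients are descriptions over 3 clusters of arrays. With the group means taken out, r to BNIP3 ranged from 0.265 (LRRC20) to 0.740 (OSBPL10).

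BNIP3L (NIX), the receptor most like BNIP3 in sequence and best known for clearing mitochondria from maturing red cells, moved far less. On 221479_s_at it read 10.88, 10.84, 10.81 and 10.84 in shGFP, 10.86, 10.81, 10.66 and 10.81 in shHIF, and 10.65, 10.65, 10.68 and 10.62 in Sharp1 cells. The Sharp1 arrays lay wholly below the control arrays, while the shHIF and control ranges overlapped. The fall under Sharp1 was -0.19 (SE 0.04, limma adjusted p = 0.00181), leaving 87.5%, and the shHIF difference was -0.06 (adjusted p = 0.410).

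On the other BNIP3L probe set, 221478_at, both differences were of similar size, -0.13 under Sharp1 and -0.12 in shHIF cells (limma adjusted p = 0.0297 and 0.0447), and arrays of all groups overlapped. The Sharp1 call on 221478_at was lost in 8 of 21 alternative settings, among them centring each array on its median (-0.11, adjusted p = 0.110) and leaving out shGFP B, C or D or Sharp1 B or C (adjusted p from 0.0503 to 0.136). The shHIF call was lost in 12, with the adjusted p reaching 0.185. Leaving out shGFP B, C or D, shHIF A, B or D, or Sharp1 A each ended it. The call on 221479_s_at under Sharp1 held in all 21. Sharp1 lay below shHIF by -0.14 on that probe set (adjusted p = 0.0177), a call lost in 5 settings, 3 of which left out shHIF A, Sharp1 D or both shHIF A and D (adjusted p = 0.0760, 0.0542 and 0.211). On 221478_at the same difference was -0.01 (interval -0.10 to 0.07, adjusted p = 0.861).

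FUNDC1, a receptor linked to mitophagy in low oxygen and controlled by phosphorylation, read 9.08, 8.99, 8.94 and 9.09 in shGFP, 8.88, 9.04, 9.01 and 8.80 in shHIF, and 9.09, 9.17, 9.17 and 9.14 in Sharp1 cells on its single probe set. Neither group passed the test against control, with differences of 0.12 under Sharp1 (interval -0.002 to 0.24, limma adjusted p = 0.194) and -0.10 in shHIF (interval -0.22 to 0.03, adjusted p = 0.284). Sharp1 arrays lay wholly above shHIF arrays, by 0.21 (limma adjusted p = 0.00653). Without shHIF arrays A and D that difference was 0.12 (adjusted p = 0.170).

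BCL2L13, a BCL2-related receptor that can stand in for yeast Atg32, was read by 5 probe sets that did not move together. On the brightest, 217955_at, it rose under Sharp1, from 7.84 ± 0.03 to 8.06 ± 0.09 (0.23, SE 0.06, limma adjusted p = 0.00984), and on 223664_x_at it fell, from 7.61 ± 0.08 to 7.32 ± 0.12 (-0.29, SE 0.07, adjusted p = 0.00351, SD and n = 4 throughout). In both cases the Sharp1 and control arrays did not overlap. The rise was 0.20 with an adjusted p of 0.0506 when Sharp1 D was left out. The other 3 probe sets did not pass under Sharp1, and 2 of them, at 5.34 and 4.64, lay below the median probe set of 5.41. In shHIF cells none of the 5 passed, with 217955_at and 223664_x_at each 0.11 above control (limma adjusted p = 0.213 and 0.313). Between Sharp1 and shHIF only 223664_x_at was called, at -0.40 (adjusted p = 7.44e-05), and 1560977_a_at reached -0.30 (adjusted p = 0.0301) without shHIF A, from -0.23 (adjusted p = 0.0927). Probe sets whose names end in _s_at or _x_at can bind more than 1 transcript, and the sequences they target were not used here, so which BCL2L13 transcript each reads cannot be told.

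PINK1, the kinase that builds up on depolarised mitochondria, differed from BNIP3 in its pattern: it was lowest under Sharp1 and highest in shHIF cells. On 209018_s_at it read 8.53, 8.52, 8.48 and 8.68 in shGFP, 8.83, 8.95, 8.73 and 8.88 in shHIF, and 8.04, 8.16, 8.25 and 8.10 in Sharp1 cells. The 3 groups did not overlap. PINK1 fell by 0.42 under Sharp1 (SE 0.06, limma adjusted p = 2.89e-05) and rose by 0.29 in shHIF cells (SE 0.06, adjusted p = 0.00135). The direct difference, Sharp1 minus shHIF, was -0.71 (interval -0.84 to -0.58, adjusted p = 4.37e-09), which left 61.1% of the shHIF signal.

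The brighter PINK1 probe set, 209019_s_at, moved in the same directions, and the 2 correlated at r = 0.911 over the 12 arrays. It read 8.84, 8.75, 8.67 and 8.95 in shGFP, 9.12, 8.91, 9.04 and 9.14 in shHIF, and 8.40, 8.69, 8.56 and 8.54 in Sharp1 cells. Here control overlapped each manipulated group, while Sharp1 and shHIF did not overlap. The differences from control were -0.26 under Sharp1 (limma adjusted p = 0.0102) and 0.25 in shHIF cells (adjusted p = 0.0109). The Sharp1 call was lost without shGFP D or Sharp1 A (adjusted p = 0.0507 and 0.0530). The shHIF call was lost without shGFP C (adjusted p = 0.0548) or without shHIF A and D together (0.17, adjusted p = 0.181). The direct difference of -0.50 (adjusted p = 3.34e-06) kept its call in all 21 settings.

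**Figure D2:**
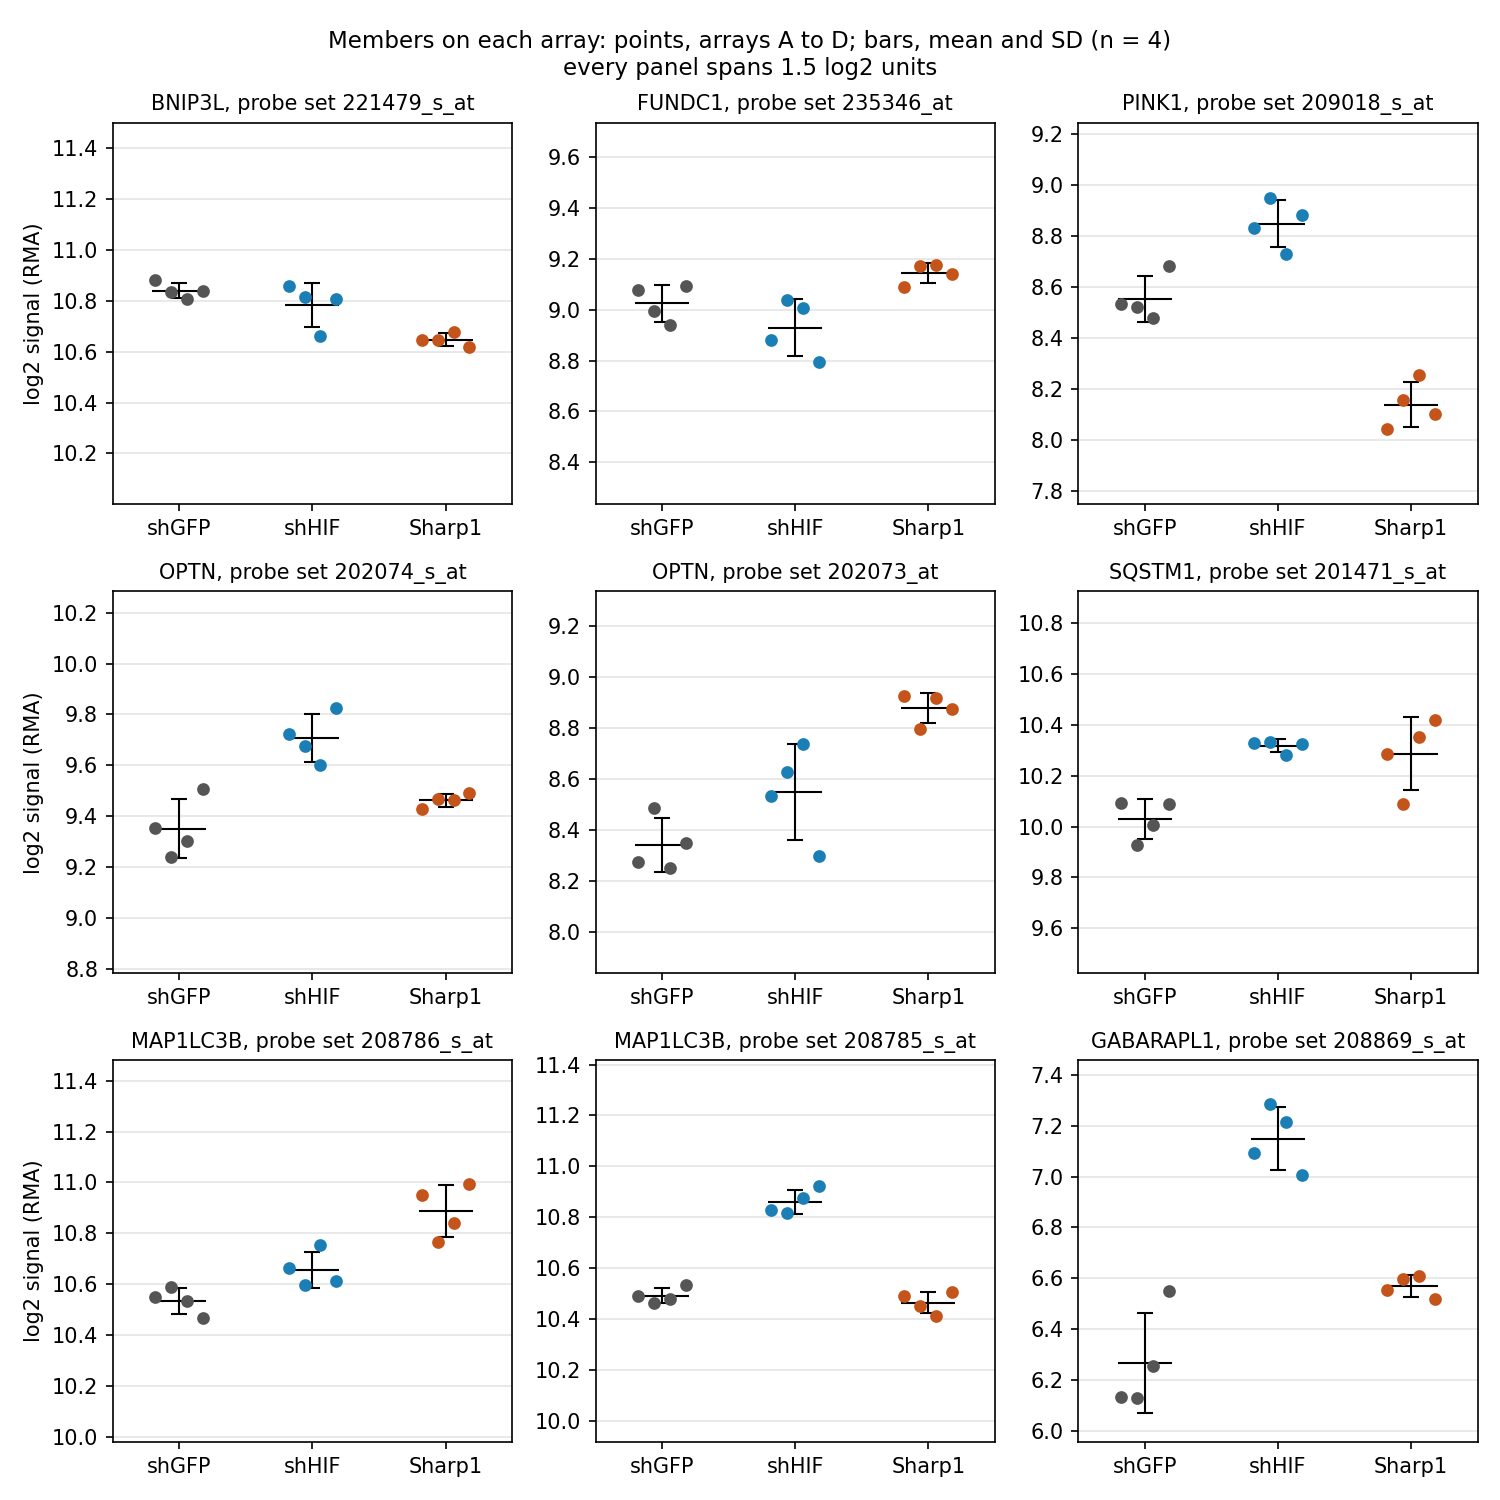
Log2 signal of 7 members on 9 probe sets, with points for arrays A to D of each group, bars for the mean and SD of 4 arrays, and 1.5 log2 units in every panel. PINK1 lies above control in shHIF and below it in Sharp1 cells, GABARAPL1 is highest in shHIF cells, and the paired panels of OPTN and of MAP1LC3B rank the groups differently. For BNIP3L, PINK1 and GABARAPL1 the dimmer probe set is drawn, which had the larger difference from control under Sharp1.

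OPTN, an adapter that links ubiquitin-marked mitochondria to the autophagic membrane, was called higher in both groups, but each on a different probe set. On 202074_s_at it read 9.35, 9.24, 9.30 and 9.51 in shGFP, 9.72, 9.68, 9.60 and 9.83 in shHIF, and 9.43, 9.47, 9.46 and 9.49 in Sharp1 cells. The shHIF arrays lay above all others, and the Sharp1 arrays lay within the control range. OPTN rose by 0.36 in shHIF cells (SE 0.06, limma adjusted p = 5.06e-05), and the Sharp1 difference was 0.11 (adjusted p = 0.228, and 0.0471 without shGFP D).

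On the second OPTN probe set, 202073_at, the arrays read 8.27, 8.49, 8.25 and 8.35 in shGFP, 8.53, 8.63, 8.74 and 8.30 in shHIF, and 8.93, 8.79, 8.92 and 8.87 in Sharp1 cells. Now the Sharp1 arrays lay above all others, with a rise of 0.54 over control (SE 0.08, limma adjusted p = 8.18e-06). The shHIF difference was 0.21 (adjusted p = 0.0507), and without shHIF D, the lowest shHIF array, it was 0.29 (adjusted p = 0.00236). It passed in 8 of the 21 settings, among them those without shGFP B or without Sharp1 B. The direct comparison was -0.24 on the first probe set and 0.33 on the second (adjusted p = 0.00189 and 0.00150), and both lost their calls without shHIF A and D (adjusted p = 0.0513 and 0.0548). Over the 12 arrays the 2 probe sets had r = 0.0135, so the order of Sharp1 and shHIF for OPTN depends on the probe set read.

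SQSTM1, the adapter p62, which is itself degraded by autophagy, was higher in both groups on its brightest probe set. On 201471_s_at it read 10.09, 9.93, 10.01 and 10.09 in shGFP, 10.33, 10.33, 10.28 and 10.33 in shHIF, and 10.29, 10.09, 10.35 and 10.42 in Sharp1 cells. The shHIF arrays lay wholly above control, and Sharp1 array B lay within the control range. SQSTM1 rose by 0.29 in shHIF (SE 0.06, limma adjusted p = 0.000528) and by 0.26 under Sharp1 (SE 0.06, adjusted p = 0.00178), and the 2 groups differed by -0.03 (interval -0.15 to 0.09, adjusted p = 0.744).

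Of the other 4 SQSTM1 probe sets, 213112_s_at was also called higher in shHIF cells (0.35, limma adjusted p = 0.00563), a call lost without shHIF A and D (0.26, adjusted p = 0.10). On 244804_at the shHIF difference was 0.19 (adjusted p = 0.0510), and it passed in 5 of the 21 settings, 3 of which left out shGFP A, shHIF C or Sharp1 B. The dimmest, 242568_s_at, at 3.69, lay below the median probe set and did not pass in any comparison, nor did 239004_at. Between Sharp1 and shHIF none of the 5 was called, although 213112_s_at differed by -0.26 without shHIF C (adjusted p = 0.0332). None of these 4 was called under Sharp1 against control.

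MAP1LC3B, the ATG8 protein most often followed as a marker of autophagosomes, was higher under Sharp1 on one probe set and in shHIF cells on the other. On 208786_s_at the arrays read 10.55, 10.59, 10.53 and 10.47 in shGFP, 10.66, 10.60, 10.75 and 10.61 in shHIF, and 10.95, 10.76, 10.84 and 10.99 in Sharp1 cells. On 208785_s_at they read 10.49, 10.46, 10.48 and 10.53 in shGFP, 10.83, 10.82, 10.88 and 10.92 in shHIF, and 10.49, 10.45, 10.41 and 10.50 in Sharp1 cells. Sharp1 arrays were the highest on the first probe set and overlapped the control arrays on the second, where the shHIF arrays stood alone.

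MAP1LC3B thus rose by 0.35 under Sharp1 on 208786_s_at (SE 0.05, limma adjusted p = 8.86e-06), with a shHIF difference of 0.12 (adjusted p = 0.0912). On 208785_s_at it rose by 0.37 in shHIF (SE 0.04, adjusted p = 2.39e-07), with a Sharp1 difference of -0.03 (adjusted p = 0.762). The direct differences had opposite signs, 0.23 and -0.40 (adjusted p = 0.000780 and 3.30e-08). A near-identical copy of MAP1LC3B exists in the genome and both names end in _s_at, so the assignment of these signals to MAP1LC3B alone is uncertain.

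GABARAPL1, an ATG8 protein of the GABARAP branch, showed the largest rise of any member, in shHIF cells. On 208869_s_at it read 6.13, 6.13, 6.26 and 6.55 in shGFP, 7.09, 7.28, 7.21 and 7.01 in shHIF, and 6.55, 6.60, 6.61 and 6.52 in Sharp1 cells. Every shHIF array lay above every other array, and the Sharp1 arrays lay above every control array except D. The rise in shHIF cells was 0.88 (SE 0.09, interval 0.69 to 1.07, limma adjusted p = 9.71e-08), a 1.84-fold higher signal. The Sharp1 rise was 0.30 (adjusted p = 0.0207), a call lost without shGFP A, shGFP B or Sharp1 C (adjusted p = 0.0858, 0.0843 and 0.0583).

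The brighter GABARAPL1 probe set, 208868_s_at, read 6.85, 6.67, 6.92 and 7.19 in shGFP, 7.31, 7.57, 7.45 and 7.63 in shHIF, and 7.12, 7.07, 7.20 and 7.19 in Sharp1 cells. It too placed all shHIF arrays above the rest, with a rise of 0.58 (SE 0.09, limma adjusted p = 4.17e-05). The Sharp1 difference was 0.24 (adjusted p = 0.0870), and it was called without shGFP D, the highest control array (0.33, adjusted p = 0.00915), and with array weights (0.26, adjusted p = 0.0288). Sharp1 lay below shHIF on both probe sets, by -0.34 and -0.58 (limma adjusted p = 0.00583 and 1.99e-05), and the 2 probe sets correlated at r = 0.921. Among all genes, 273 of 19775 had a larger rise in shHIF cells than GABARAPL1 on 208868_s_at. Both GABARAPL1 names end in _s_at, so more than 1 transcript may be bound, and this was not examined.

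ULK1, the initiating kinase, read 6.39, 6.37, 6.44 and 6.40 in shGFP, 6.60, 6.78, 6.72 and 6.85 in shHIF, and 6.45, 6.32, 6.69 and 6.58 in Sharp1 cells. All shHIF arrays exceeded the control arrays, and Sharp1 arrays spread across both ranges. ULK1 rose by 0.34 in shHIF (SE 0.09, limma adjusted p = 0.00495) and differed by 0.11 under Sharp1 (interval -0.07 to 0.29, adjusted p = 0.465). Sharp1 lay below shHIF by -0.23 (adjusted p = 0.0499), and that call was lost in 16 of the 21 settings, with the adjusted p reaching 0.171. Leaving out any single array other than shHIF A or Sharp1 C ended it.

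Taking all 24 probe sets, Sharp1 against shGFP gave 5 called higher and 7 called lower, so 50% were called against 18.1% of all probe sets (9.82% higher, 8.26% lower). On 8 of the 24 the arrays did not overlap, against 21.6% of all probe sets. In shHIF against shGFP 9 were higher and 3 lower, 50% against 22.2% overall (10.7% higher, 11.5% lower), and 12 did not overlap, against 22.3%. In Sharp1 against shHIF 3 were higher and 11 lower, 58.3% against 29.1% overall (15.3% higher, 13.8% lower), and 12 did not overlap, against 28.0%. The median difference of the 24 was 0.07 under Sharp1 and 0.13 in shHIF cells, beside -0.01 and 0.02 over all probe sets. Of the 24, 21 had a mean above the median probe set, so these shares are not set against probe sets of like brightness.

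**Figure D3:**
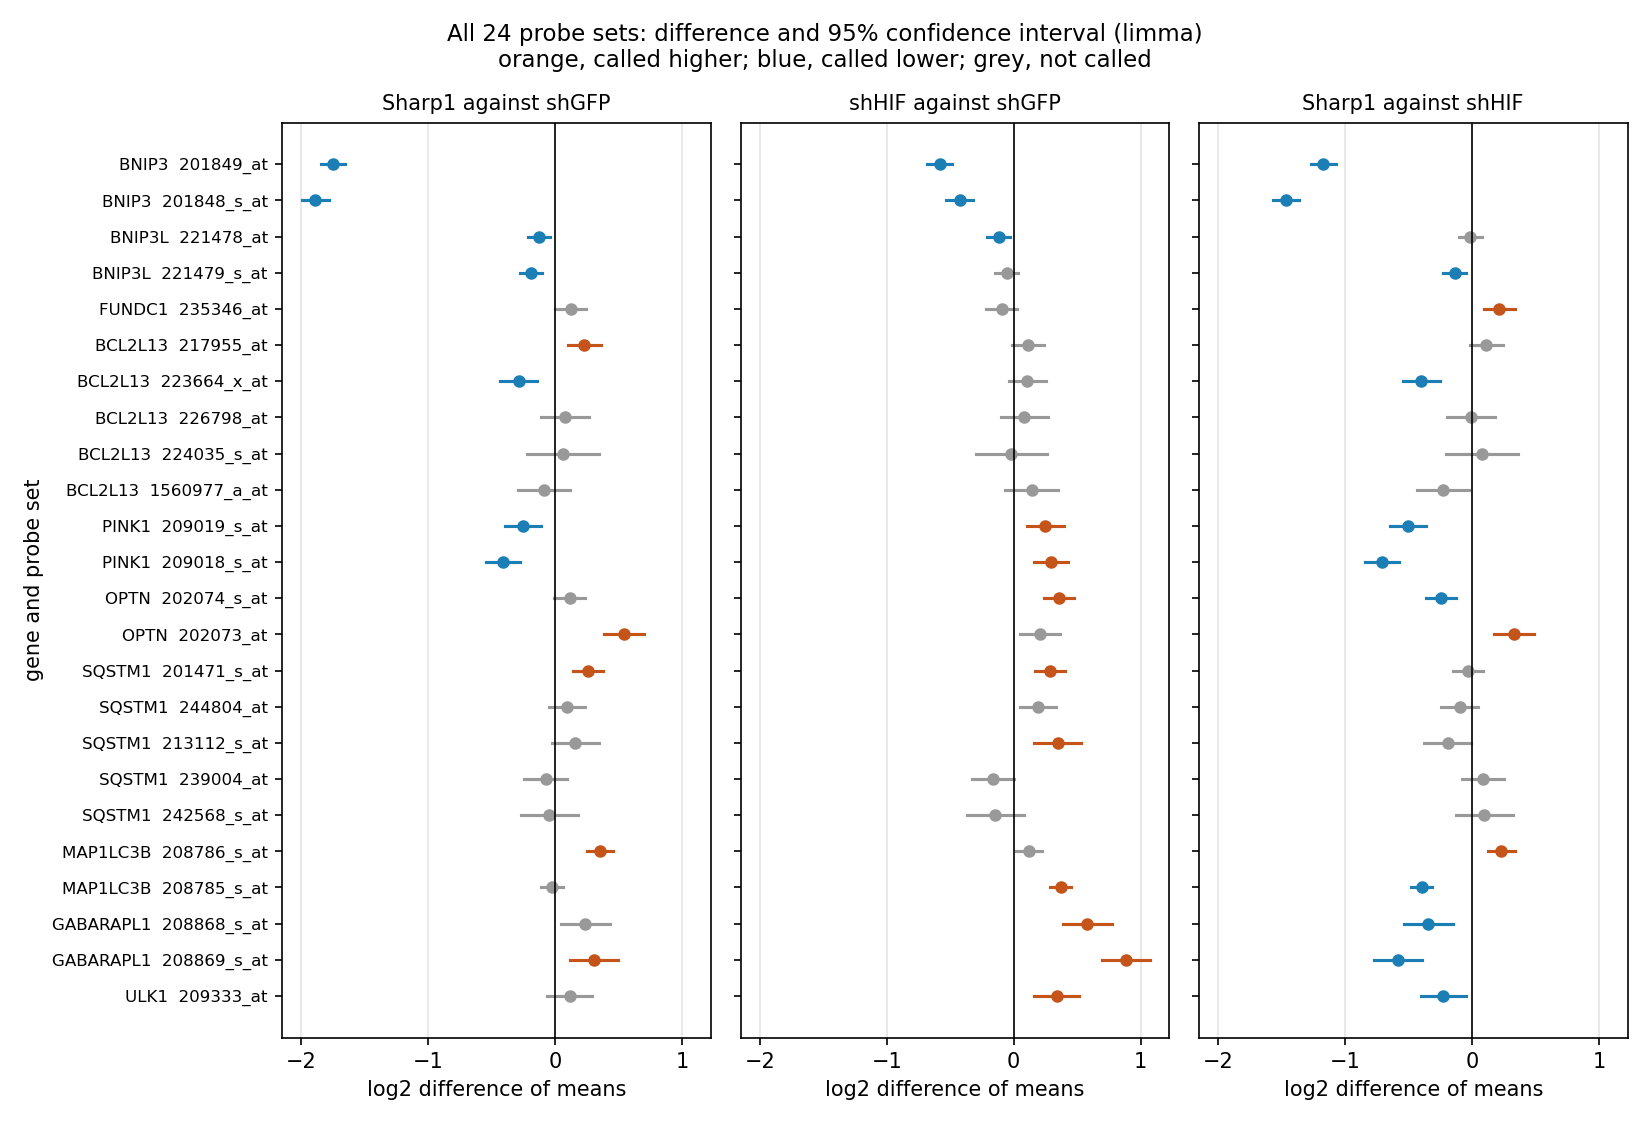
Log2 difference of group means for each of the 24 probe sets in the 3 comparisons, with the 95% confidence interval from limma, orange where called higher, blue where called lower and grey where not called. BNIP3 lies farthest to the left among the genes in every panel, between -0.43 and -1.89, and every other difference lies between -0.71 and 0.88.

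Counted by gene on the brightest probe set, in a separate limma fit over 19775 genes, 3 members were higher under Sharp1 (BCL2L13, SQSTM1 and MAP1LC3B) and 3 were lower (BNIP3, BNIP3L and PINK1), where 27.2% of all genes were called (15.3% higher, 11.8% lower). In shHIF cells 5 were higher (PINK1, OPTN, SQSTM1, GABARAPL1 and ULK1) and 2 lower (BNIP3 and BNIP3L), where 30.8% of all genes were called (17.6% higher, 13.2% lower). Between Sharp1 and shHIF, 2 were higher under Sharp1 (FUNDC1 and MAP1LC3B) and 5 lower (BNIP3, PINK1, OPTN, GABARAPL1 and ULK1), where 38.4% were called (18.0% higher, 20.4% lower). Some of these genes had another probe set called the opposite way. Against control under Sharp1 this was BCL2L13 (223664_x_at, -0.29). Between Sharp1 and shHIF it was MAP1LC3B (208785_s_at, -0.40) and OPTN (202073_at, 0.33). The 3 higher under Sharp1 became 5 without shGFP D, and the 2 lower in shHIF became 1, BNIP3 alone, without shGFP B, shGFP D, shHIF B or shHIF D, or without shHIF A and D.

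The rest of the machinery was read from role lists that hold 87 measured genes beside the members. Under Sharp1 20 of the 87 were higher, 21 lower and 46 did not pass, and in shHIF cells 23 were higher, 20 lower and 44 did not pass. These are 47.1% and 49.4% called, beside 27.2% and 30.8% of all genes. The list shares, here and below, are not set against genes of like brightness, and the lists were chosen with earlier results known. Their median differences, 0.01 in both comparisons, lay beside -0.002 and 0.05 over all genes. Rises and falls were thus about equally frequent beyond the members.

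Under Sharp1 the largest falls on the lists beside BNIP3 were in CTSD, the lysosomal protease cathepsin D, and BAX, a pore-forming protein of the outer mitochondrial membrane. CTSD went from 8.86 ± 0.03 in shGFP to 7.53 ± 0.22 in Sharp1 cells (SD, n = 4), a difference of -1.33 (limma adjusted p = 9.11e-13), and stood at 8.81 in shHIF cells (-0.05 against control, adjusted p = 0.670). BAX fell by 0.66 (adjusted p = 1.01e-08), with a shHIF difference of 0.06 (adjusted p = 0.558). The largest rises were in TAX1BP1, a ubiquitin-binding autophagy adapter (0.64, adjusted p = 1.98e-13), NIPSNAP1, a mitochondrial protein that recruits adapters (0.64, adjusted p = 1.86e-09), and PMAIP1 (NOXA), a BH3-only protein (0.60, adjusted p = 1.21e-11). TAX1BP1 also rose in shHIF cells, by 0.16 (adjusted p = 0.000658), a call lost with the mean of all its probe sets (0.07, adjusted p = 0.169).

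In shHIF cells the largest falls beside BNIP3 were in ATG10, the E2-like enzyme that joins ATG12 to ATG5, and PRKAA2, a catalytic subunit of AMP-activated kinase. ATG10 went from 6.78 ± 0.17 in shGFP to 5.83 ± 0.16 in shHIF cells (SD, n = 4), a difference of -0.95 (limma adjusted p = 4.33e-08), and was 6.84 in Sharp1 cells. With the mean of its probe sets the shHIF difference was -0.55, still called. PRKAA2 fell by 0.56 (adjusted p = 3.71e-06), from 7.62 to 7.06, and stood at 7.83 in Sharp1 cells. The largest rises beside GABARAPL1 were in CTSL, cathepsin L (0.56, adjusted p = 7.87e-09), and ATG101, a subunit of the ULK1 complex (0.48, adjusted p = 2.24e-06). ATG101 rose under Sharp1 as well, by 0.41 (adjusted p = 2.18e-05).

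Set directly against each other, Sharp1 lay below shHIF in CTSD (-1.28, limma adjusted p = 1.25e-12) and in PPARGC1B, a coactivator of mitochondrial biogenesis (-0.75, adjusted p = 1.23e-06). It lay above shHIF in ATG10 (1.02, adjusted p = 5.80e-09), NIPSNAP1 (0.78, adjusted p = 2.60e-11) and PRKAA2 (0.76, adjusted p = 1.43e-08). With the mean of a gene's probe sets PPARGC1B was at -0.42 and ATG10 at 0.50, both still called. Of the 87 genes, 25 were higher and 23 lower in this comparison, 55.2% called beside 38.4% of all genes (18.0% higher, 20.4% lower).

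By role, the ATG8 proteins had 3 of 6 genes higher and none lower in shHIF cells (GABARAPL1, GABARAP and GABARAPL2), where 17.6% of all genes were higher. Under Sharp1 2 of the 6 were higher and none lower (MAP1LC3B and MAP1LC3A), where 15.3% of all genes were higher. The ULK initiation complex had 3 of 5 higher (ULK1, ATG13 and ATG101) and 1 lower (ULK2) in shHIF cells, against 1 and 1 under Sharp1. Without shHIF A and D the shHIF differences of ATG13 (0.19, limma adjusted p = 0.0616) and ULK2 (-0.28, adjusted p = 0.0820) were not called, nor was ULK2 in either group with the mean of its probe sets (adjusted p = 0.484 and 0.464). Among 8 mitophagy receptors, 3 were lower in shHIF cells (BNIP3, BNIP3L and NIPSNAP2), where 13.2% of all genes were lower. NIPSNAP2 was at -0.25 there and at -0.09 without shHIF A and D (adjusted p = 0.262), and BNIP3L lost its call as given above. Under Sharp1 2 receptors were higher and 3 lower, where 11.8% of all genes were lower. A single call or a pair of calls on lists this short is near the share over all genes. The lists are short and their members were counted without a test of the list.

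**Figure D4:**
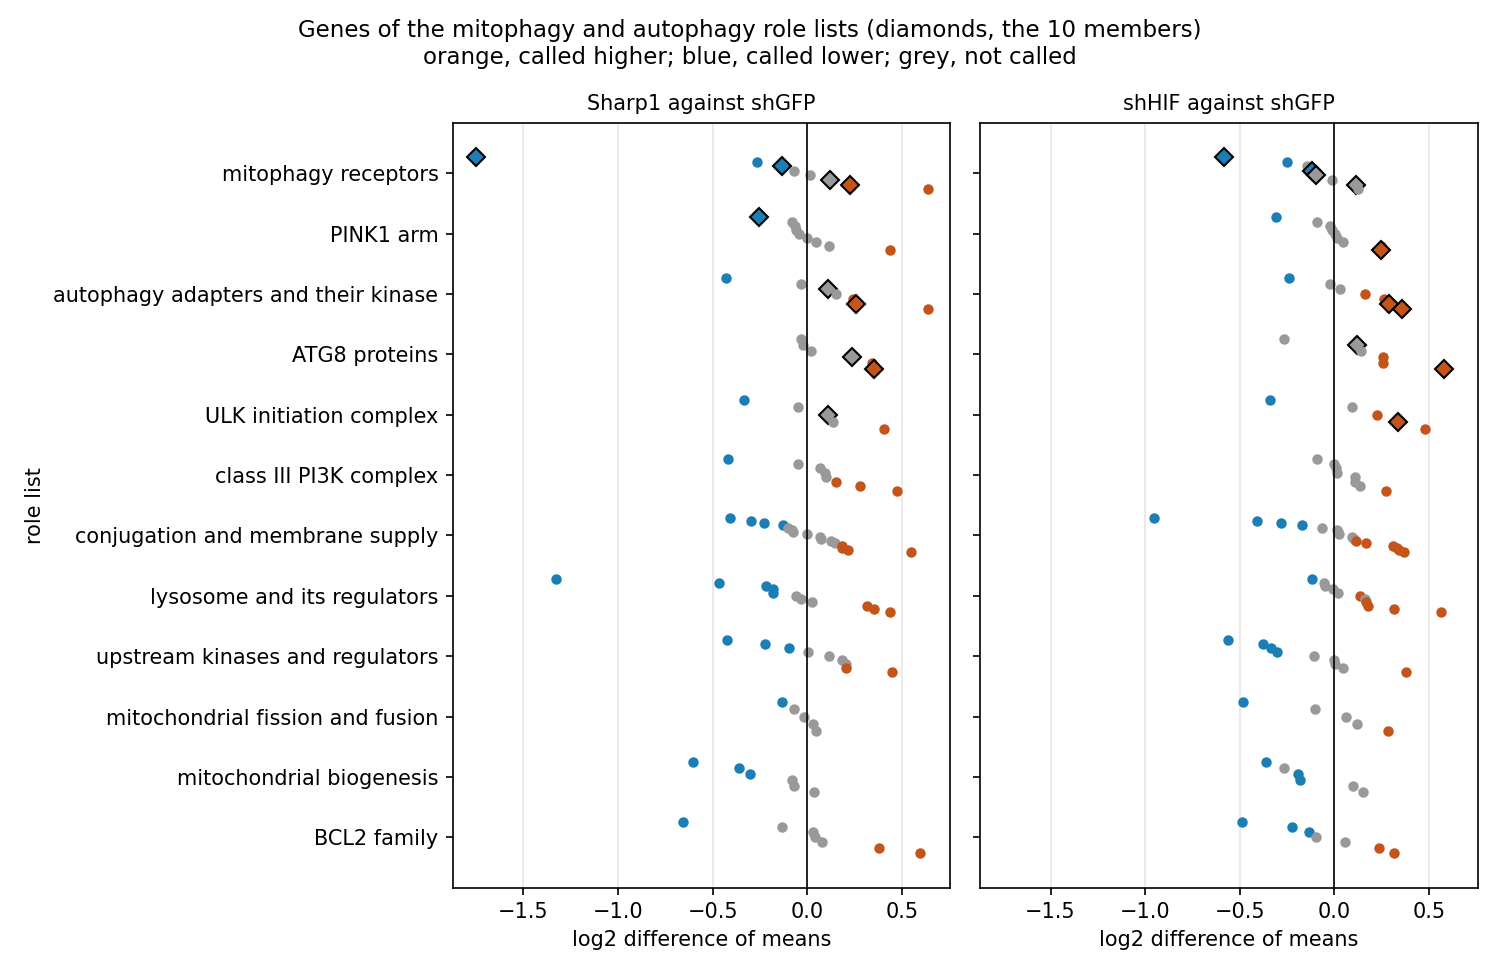
Log2 difference from shGFP of each measured gene on 12 role lists, with the 10 members as diamonds, orange where called higher, blue where called lower and grey where not called. Both panels hold calls on either side of 0, with BNIP3 (-1.75) and CTSD (-1.33) at the far left under Sharp1 and ATG10 (-0.95) at the far left in shHIF cells.

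The targeted genes and the quality of the arrays were checked on the same files. BHLHE41 rose by 5.35 under Sharp1 on 223185_s_at, from 3.89 to 9.24, and by 1.59 on 231243_s_at, while its brightest probe set, 221530_s_at, fell by 2.06. On 231242_at it differed by -0.13 (limma adjusted p = 0.442). In shHIF cells EPAS1 (HIF2a) fell by 2.85 on 200878_at and HIF1A by 0.73. EPAS1 differed there by -0.12 on 200879_s_at and 0.11 on 241055_at (adjusted p = 0.420 and 0.432). These uncalled probe sets lay below the median probe set. Under Sharp1 EPAS1 fell by 0.71 on 200878_at and HIF1A differed by 0.09 (limma adjusted p = 0.0836). Array medians lay between 5.39 and 5.44, and the lowest correlation within a group (0.996) lay above the highest between groups (0.995). VIM, CD44, MSN and AXL, markers of this mesenchymal line, read from 11.8 to 14.6, while SPARC (3.52 to 4.30) lay below the median probe set. CDH1 and PGR, low in this line, also lay below it, and ESR1, ERBB2 and EPCAM lay above it, as did PECAM1, COL1A1 and PDGFRB, markers of endothelium and fibroblasts. PTPRC, CD3E and CDH5, markers of leukocytes and endothelium, lay below it, and the fibroblast marker DCN lay on both sides of it.

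Measures of RNA and labelling quality differed for some shHIF arrays and for Sharp1 B. Ribosomal probe sets averaged 9.27 on Sharp1 B and 9.53 to 9.86 on the other arrays. Spike-in controls averaged 10.4 on shHIF A and D and 10.6 to 10.8 on the other 10 arrays. The difference between the 3' and 5' probe sets for actin was 0.90 to 0.94 on shHIF A, B and C, 0.62 on shHIF D, and 0.56 to 0.85 on the shGFP and Sharp1 arrays. BNIP3 on shHIF D was the lowest of the shHIF arrays on 201849_at and the highest on 201848_s_at. Without shHIF A and D the fall of BNIP3 in shHIF cells was -0.53 on the first and -0.43 on the second. The part of these measures in the smaller shHIF and Sharp1 differences was not tested.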

How the data were processed

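The deposited values were log2 probe set signals that the authors made with RMA (robust multi-array average: background correction, quantile normalization and summary of probes), per the submitters' processing notes. No version of RMA is given in the sources used here. Quantile normalization forces arrays to one distribution, so a shift of all genes would not show. Of 54675 probe sets, 62 controls were left out, and 41097 carried a single gene symbol in the platform annotation.

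Limma 3.58.1 in R 4.3.3 fitted 3 group means to 12 arrays with a variance trend, once over 54613 probe sets and once over 19775 genes, each on its brightest probe set. A call is a Benjamini-Hochberg adjusted p under 0.05 in that fit. No minimum signal was applied. The number of arrays, 4 a group, limits the precision. This procedure was tested on simulated data, built on the Sharp1 and shGFP arrays over 54613 probe sets. With 50 changed per size, calls reached 16% at 0.25 log2, 76% at 0.5, 98% at 1 and 100% at 2. The simulated data gave 149 calls, against 9875 in the real Sharp1 comparison with shGFP. Fewer calls make the adjustment stricter, so these shares do not give the rates for the real data.

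The members and role lists were chosen with earlier results of these data known. Beside the members, the text names, per comparison, up to 3 called list genes with the largest rises and falls, and the 6 genes most like BNIP3. Alternatives were centring or quantile normalization again, other variance models, array weights, 2-group fits, a replicate block, a signal filter, the mean of a gene's probe sets, and leaving out arrays. Promoter windows were searched for exact letters.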

Additional observations from a re-analysis of the deposited data

Results flagged for a closer look

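Of 72 combinations of member probe set and group, 2 held 1 array far from the other 3, where chance gives about 1 in 20. On SQSTM1 201471_s_at, shHIF array C read 10.28 while the other 3 shHIF arrays lay between 10.326 and 10.334. On SQSTM1 244804_at, Sharp1 array B read 7.549 and the nearest other Sharp1 array 7.4553.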

How the results depend on the processing

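BNIP3 kept its direction and its call in every comparison and all 21 settings run on probe sets: from -1.78 to -1.72 under Sharp1, -0.62 to -0.53 in shHIF cells and -1.22 to -1.13 between them. With a replicate block the 3 values were -1.75, -0.58 and -1.17. Arrays that share a letter did not deviate together (1 of 12 pairs correlated above 0.1). Whether arrays with the same letter were handled together is not given by the labels and cannot be told from this. The block ended 3 member calls, BNIP3L 221478_at in both comparisons with control (adjusted p = 0.0509 and 0.0696) and ULK1 between Sharp1 and shHIF (0.0567). Member genes lower in shHIF went from 2 to 1 without a variance trend, with array weights or without shHIF A and D, and ranged from 1 to 2 with 1 array left out. Leaving out shHIF A and D was an alternative chosen in view of the data. There, member probe sets higher in Sharp1 than shHIF went from 3 to 1 and member genes from 2 to 1. The gene count also went from 2 to 1 with the mean of all probe sets, a setting run on genes only. Member genes higher under Sharp1 ranged from 3 to 5 with 1 array left out. With the mean of all probe sets of a gene, signs turned for BHLHE41 (1.19 under Sharp1 against shGFP, 1.16 against shHIF). In shHIF cells they turned for PIK3C3 (-0.31), ATG5 (-0.0600) and LAMP2 (-0.38). Between Sharp1 and shHIF they turned for NBR1 (-0.0038), ATG5 (0.18), MFF (0.0612) and TFAM (0.15). Those genes have probe sets that disagree. Quantile normalization again or centring moved the share of calls that were higher by less than 10 percentage points and the median of all probe sets by less than 0.1. On simulated data changes of 0.25 log2 were called in 16% of cases. Those data gave 149 calls, against 9875 for Sharp1 against shGFP, so the adjustment was stricter there and the share does not carry over. Members with small differences may still have changed without a call.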

Other observations

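Some genes around the members, chosen after their values were seen, differed between the 2 groups, which share their control arrays. TBK1, the kinase that phosphorylates OPTN, fell by 0.43 under Sharp1 (limma adjusted p = 2.89e-07) and rose by 0.26 in shHIF cells (adjusted p = 0.000239), and Sharp1 lay below shHIF by -0.69 (adjusted p = 3.72e-11). LAMP1, a lysosomal membrane protein, fell by 0.47 under Sharp1 (adjusted p = 1.99e-10) and rose by 0.17 in shHIF cells (adjusted p = 0.00102), the latter not called with the mean of its probe sets (adjusted p = 0.0665). ATG12, the partner that ATG10 joins to ATG5, fell by 0.41 in shHIF cells (adjusted p = 2.69e-07). Under Sharp1 it differed from control by 0.19 (adjusted p = 0.00403), a call lost with the mean of its probe sets (0.13, adjusted p = 0.116), and it lay 0.60 higher in Sharp1 than in shHIF cells (adjusted p = 1.86e-10).

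The GABARAP branch of the ATG8 proteins was higher in shHIF cells beyond GABARAPL1. GABARAP rose by 0.26 (limma adjusted p = 1.18e-06) and GABARAPL2 by 0.26 (adjusted p = 1.10e-05), while under Sharp1 they differed from control by -0.03 and 0.02 (adjusted p = 0.589 and 0.807). Sharp1 lay below shHIF by -0.29 for GABARAP and -0.24 for GABARAPL2 (adjusted p = 1.00e-07 and 1.80e-05). On the early side of autophagy, BECN1, a subunit of the class III PI3K complex, rose by 0.47 under Sharp1 (adjusted p = 1.26e-07), or 0.20 with the mean of its probe sets (adjusted p = 0.00315), and UVRAG, a partner of BECN1, fell by 0.42 (adjusted p = 1.01e-05). In shHIF cells BECN1 differed by -0.00 and UVRAG by 0.11 (adjusted p = 0.995 and 0.217). DDIT4 (REDD1), a textbook HIF target that restrains mTOR, fell in both groups, by 0.42 under Sharp1 and 0.33 in shHIF cells (adjusted p = 4.44e-06 and 0.000111).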
